A study of Mus musculus with 21 samples.

Results

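A list of 10 genes of the mouse 2-cell embryo, given by symbol, was followed through inhibition of RNA polymerase I in embryonic stem cells: Tcstv1, Tcstv3, AF067061, Usp17la, Usp17lc, Usp17le, Tmem92, Sp110, Ddit4l and BC061212. The deposited table of 20900 genes held 9 of the 10, and all 9 were among the 14666 genes tested. BC061212 was not analysed here. RNA-seq was done on the poly(A) RNA of E14 cells, a mouse embryonic stem cell line of the 129 strain, grown in serum with leukaemia inhibitory factor. Cells were plated 1 day before treatment and then kept in medium with 1 µM BMH-21 or 1 µM CX-5461, both small-molecule inhibitors of RNA polymerase I, which transcribes the ribosomal DNA. RNA was taken at 2, 4 and 8 h of each inhibitor and from a single 0 h group without inhibitor, with 3 libraries in each of the 7 groups and 21 in all. That 0 h group was the control for both inhibitors, so the comparisons with control share their control libraries, and no untreated group was kept for 2, 4 or 8 h.

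In the mouse, the 2-cell stage is when the embryo's own genome is first broadly transcribed, and a wave of genes is switched on then and silenced soon after. Cultures of embryonic stem cells contain a few cells that pass in and out of a state with much of this transcription, commonly called 2-cell-like, and the transcription factor DUX is known to drive many of its genes. The Tcstv genes (2-cell-stage variable group) and their relative AF067061, the Usp17-like deubiquitinating enzymes and Tmem92 are commonly counted among the genes of that wave. Sp110 encodes a nuclear body protein known from the interferon response, and Ddit4l encodes a relative of DDIT4 that inhibits mTORC1 signalling.

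Every one of the 9 genes was higher than control after 8 h of either inhibitor, and they reached this level along different courses. Ddit4l rose within 2 h. Usp17le, Tmem92 and Sp110 were higher by 4 h with both inhibitors. AF067061, Usp17la and Usp17lc first passed the test at 8 h with both. Tcstv1 and Tcstv3 first passed it at 4 h of BMH-21 and at 8 h of CX-5461. The times of these first calls partly depended on the processing. After every library was set to the same median, AF067061 and Usp17la were called at 4 h of BMH-21. Usp17le was then called at 2 h with both inhibitors. The 4 h calls of Tcstv1 and Tcstv3 were each lost in 4 of 6 fits that left out a single library. Those of Tmem92 were lost with log2 values below 0 set to 0. In a bulk library, more cells in a 2-cell-like state and more RNA of these genes per cell cannot be told apart.

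The genes lie on 5 chromosomes in the GENCODE M21 annotation of GRCm38, the build the submitters' processing notes call mm10. Tcstv1 (chr13:119893388-119894785, minus strand), AF067061 (chr13:120263114-120264517, plus strand) and Tcstv3 (chr13:120316878-120318178, plus strand) share a cluster of 424791 bp. Usp17lc (chr7:103415072-103419880), Usp17la (chr7:104857009-104862667), both on the plus strand, and Usp17le (chr7:104768049-104777470, minus strand) lie on chromosome 7. Tmem92 is at chr11:94777217-94782703 and Sp110 at chr1:85576899-85598817, both on the minus strand, and Ddit4l is at chr3:137621612-137628333 on the plus strand. All 9 are annotated as protein coding.

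Promoter sequences from RefSeq (GRCm38.p6, 250 bases before to 50 after the annotated start) were found for 5 of the genes, with a second one for Sp110 (chr1:85603842-85604141, minus strand, 5074 bp from the GENCODE start) that is not printed. One promoter a gene is shown here, for one gene called at 2 h (Ddit4l), one called at 4 h (Sp110) and those called at 8 h with both inhibitors (AF067061, Usp17la and Usp17lc). The one printed for Sp110 is the nearer to the GENCODE start. Capitals mark matches, on either strand, to the DUX core GATTNAATC, the TATA box TATAAA, the CCAAT box and the GC box GGGCGG. No match overlapped another.
AF067061, chr13:120262845-120263144, plus strand: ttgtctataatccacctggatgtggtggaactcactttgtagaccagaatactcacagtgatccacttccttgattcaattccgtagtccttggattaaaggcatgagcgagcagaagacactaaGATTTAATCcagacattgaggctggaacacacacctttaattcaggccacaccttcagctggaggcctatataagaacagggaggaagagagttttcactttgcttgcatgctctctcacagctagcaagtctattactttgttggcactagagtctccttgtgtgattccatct
Usp17la, chr7:104856766-104857065, plus strand: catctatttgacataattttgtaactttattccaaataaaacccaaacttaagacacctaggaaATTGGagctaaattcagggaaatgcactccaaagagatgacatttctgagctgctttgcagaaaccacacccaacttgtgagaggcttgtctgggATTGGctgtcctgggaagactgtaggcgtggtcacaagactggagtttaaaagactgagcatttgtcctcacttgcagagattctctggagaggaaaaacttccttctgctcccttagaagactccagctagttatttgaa
Usp17lc, chr7:103416446-103416745, plus strand: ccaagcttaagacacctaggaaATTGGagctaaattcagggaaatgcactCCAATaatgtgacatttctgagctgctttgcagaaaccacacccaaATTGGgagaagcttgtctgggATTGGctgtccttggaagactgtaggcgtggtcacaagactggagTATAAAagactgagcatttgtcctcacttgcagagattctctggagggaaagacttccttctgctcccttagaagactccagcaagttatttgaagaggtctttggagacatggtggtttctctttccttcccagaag
Sp110, chr1:85598761-85599060, minus strand: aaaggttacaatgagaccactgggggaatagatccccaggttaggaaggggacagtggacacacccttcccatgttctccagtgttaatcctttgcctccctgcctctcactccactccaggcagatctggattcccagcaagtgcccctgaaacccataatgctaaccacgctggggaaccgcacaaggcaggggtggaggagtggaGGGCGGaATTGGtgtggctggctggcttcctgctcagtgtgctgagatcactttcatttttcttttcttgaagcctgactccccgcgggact
Ddit4l, chr3:137623422-137623721, plus strand: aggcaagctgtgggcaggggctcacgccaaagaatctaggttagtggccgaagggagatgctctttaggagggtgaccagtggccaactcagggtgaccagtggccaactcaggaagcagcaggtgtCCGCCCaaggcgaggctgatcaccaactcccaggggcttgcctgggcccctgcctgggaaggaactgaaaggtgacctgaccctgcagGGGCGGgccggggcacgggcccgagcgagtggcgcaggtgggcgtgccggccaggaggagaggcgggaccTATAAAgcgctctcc

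The letters of the DUX core occurred in 0.268% of 32851 mouse promoters of this length, and among the genes described here in that of AF067061, 125 bases before the start, as GATTTAATC. TATAAA was present in 13.6% of all promoters and in those of Usp17lc, 88 bases before the start, and Ddit4l, 35 bases after it. CCAAT matches, present in 37.4% of promoters, were found for Usp17la, Usp17lc and Sp110, and GC box matches, in 35.7%, for Sp110 and Ddit4l. The promoters of Usp17la and Usp17lc were 95.3% identical over 257 aligned bases of the 300 in each, and the alignment held 86 gap positions. The RefSeq start of Usp17lc lies 1624 bp inside the GENCODE gene and that of Ddit4l 2060 bp inside it, whereas the starts used for AF067061, Usp17la and Sp110 lie within 19 bp of the GENCODE ones. The Sp110 promoter that is not printed held a CCAAT match 18 bases before its start. A match describes the letters only, since binding was not measured.

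The libraries held 46604397 to 62812641 reads over the genes of the table. Values are log2 expression as deposited, on a scale where 0 corresponds to 42 to 86 reads of a gene, depending on the library. The deposited scaling factors per library (0.832 to 1.375) differed from median-ratio factors of the same reads (0.941 to 1.107). Setting the median of every library to the same value took out a common shift of -0.08, -0.15 and -0.21 (log2) from the differences between BMH-21 and control at 2, 4 and 8 h, and of -0.15, -0.16 and 0.22 for CX-5461, a step called centring below. For BMH-21 against CX-5461 at 8 h the shift was -0.43. Of the 9 genes, 3 passed the filter on low values (log2 above 0 in at least 3 of 21 libraries) mainly through treated libraries: Tcstv1 and Usp17lc were above 0 in 1 control each and Tmem92 in none, and 28 to 33 reads of Tmem92 were counted per control. The labels do not say whether the 3 libraries of a group came from separate cultures, so p-values measure only the spread between these libraries, which may be technical.

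**Figure D1:**
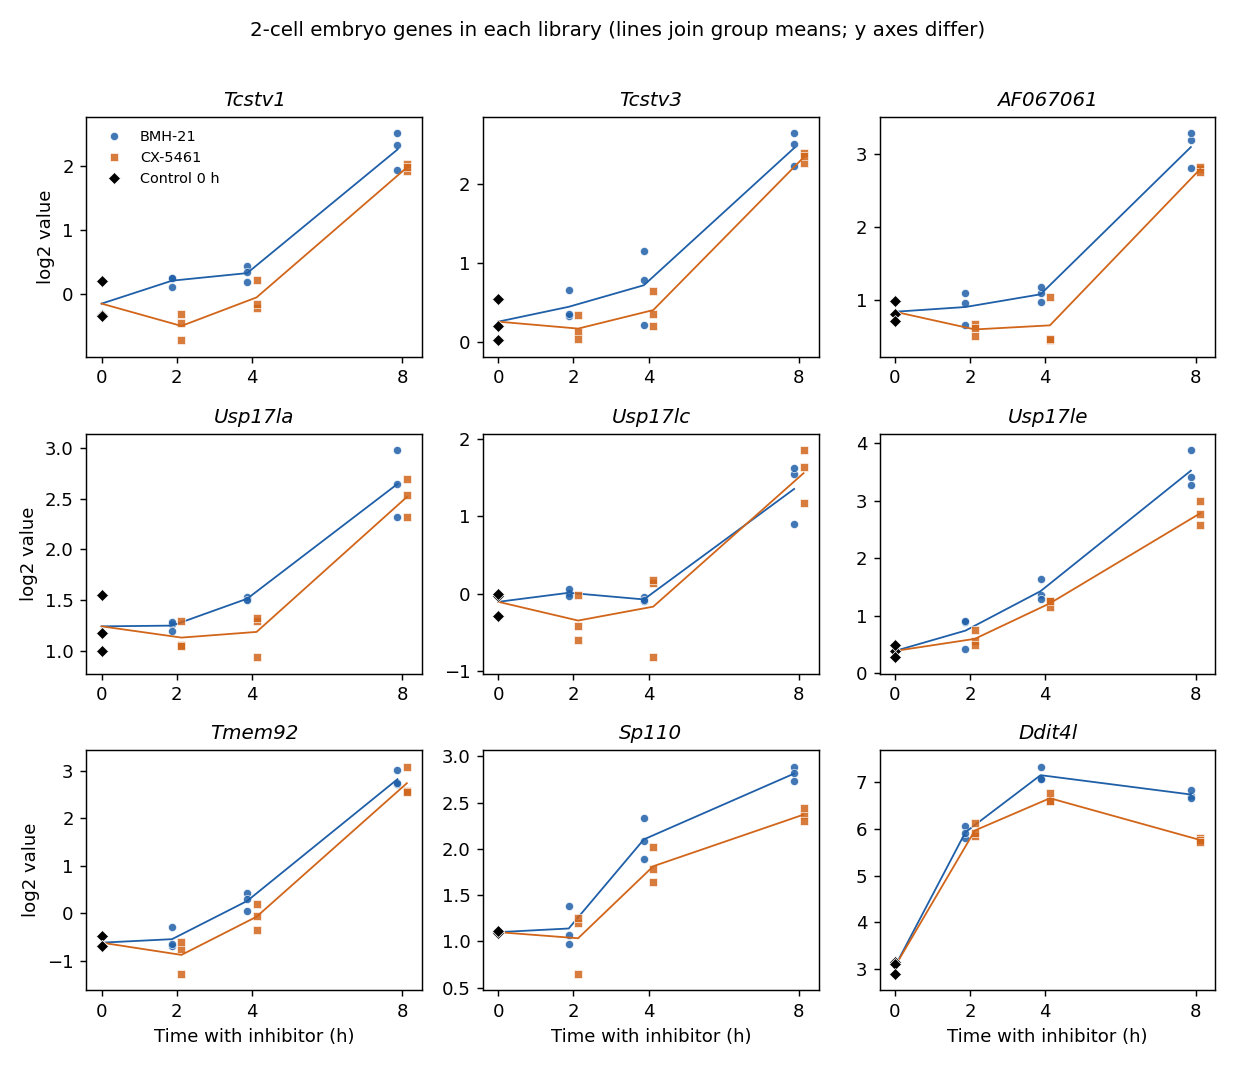
The log2 value of each gene in each of the 21 libraries (y axis, as deposited, a separate scale for each panel) against hours with inhibitor (x axis); points are libraries, lines join group means. The 6 libraries at 8 h lie above the 3 controls in every panel, and only Ddit4l has its highest values at 4 h.

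Against the 0 h control, limma called 9 of 9 genes higher after 8 h of BMH-21, where 24.5% of all tested genes were called higher, and 9 of 9 after 8 h of CX-5461, where the share was 35.1%. Their median log2 difference was 2.26 with BMH-21 and 2.09 with CX-5461, beside -0.40 and 0.11 for all tested genes. At 4 h, 6 of 9 were called higher with BMH-21 (22.1% of all tested genes) and 4 of 9 with CX-5461 (19.8%), with medians of 0.48 and 0.15 beside -0.21 and -0.28 for all tested genes. The 4 h count for BMH-21 was 8 after centring and with median-ratio factors (32.2% and 34.4% of all tested genes), with Usp17la and AF067061 added, and 3 with quantile normalization (30.4%). That for CX-5461 was 4, 5 and 3 in the same order (28.5%, 33.3% and 27.8%). At 2 h, Ddit4l alone was called, higher with each inhibitor, where 8.48% of all tested genes were called higher with BMH-21 and 7.45% with CX-5461. At an unadjusted p under 0.05, the other genes added only Usp17le with BMH-21 and none with CX-5461. Centring changed the share of all tested genes called higher at 8 h to 33.3% with BMH-21 and 29.3% with CX-5461, and the share called lower from 56.9% to 51.3% and from 14.3% to 44.7%. In all 18 comparisons of a gene at 8 h with control, the 3 treated libraries lay above the 3 controls, and each call held under every alternative setting and without any 1 library.

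**Figure D2:**
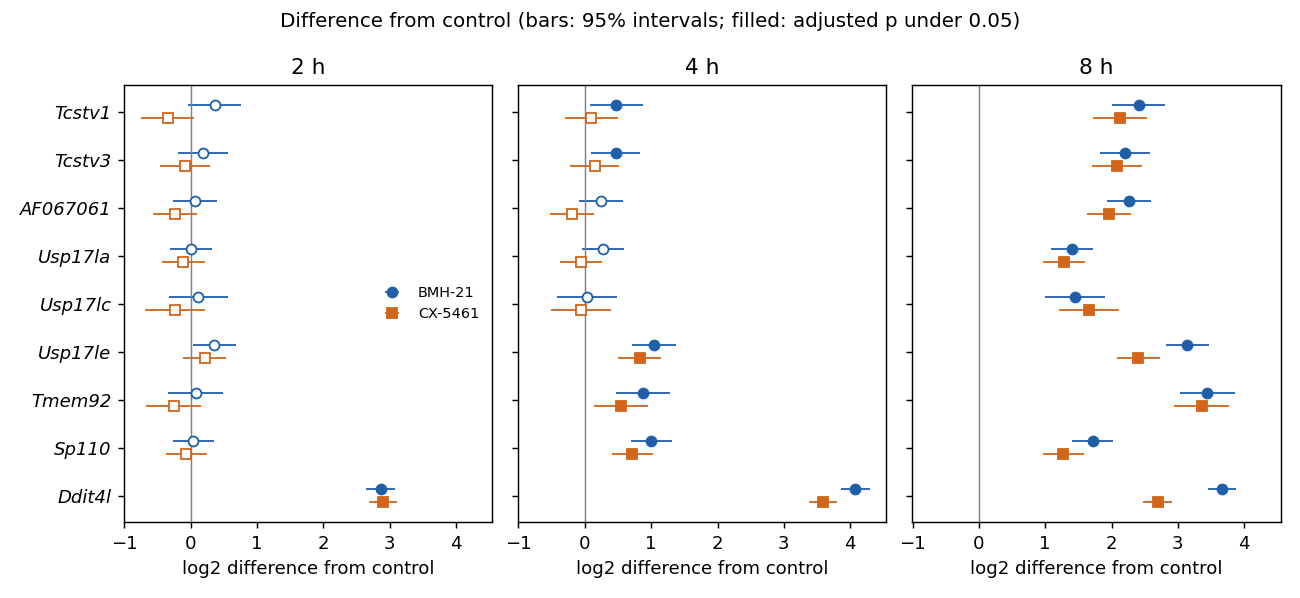
The log2 difference from the 0 h control (x axis) of each gene (y axis) at 2, 4 and 8 h of BMH-21 (circles) or CX-5461 (squares), as estimated by limma; bars are 95% intervals and filled symbols have an adjusted p under 0.05. At 2 h only Ddit4l is past the threshold, although the interval of Usp17le with BMH-21 lies above 0 (0.03 to 0.68). At 8 h all 9 genes are past it, between 1.27 and 3.67.

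The chromosome 13 genes moved late. Tcstv1 had log2 values of -0.32, 0.21 and -0.34 in the controls, 0.26, 0.25 and 0.12 at 2 h of BMH-21, 0.44, 0.19 and 0.35 at 4 h, and 1.94, 2.32 and 2.51 at 8 h. With CX-5461 its log2 values were -0.72, -0.32 and -0.46 at 2 h, -0.22, 0.22 and -0.15 at 4 h, and 1.92, 2.03 and 1.98 at 8 h. The 8 h libraries of both inhibitors stood apart from all the others, while those at 4 h overlapped the controls, of which replicate 2 was well above the other two. Its log2 difference from control at 8 h was 2.41 ± 0.20 (SE) with BMH-21 and 2.13 ± 0.20 with CX-5461, 5.31-fold and 4.37-fold, with limma adjusted p of 2.4e-21 and 1.4e-17. At 4 h of BMH-21 the difference was 0.48 ± 0.20 (limma adjusted p = 0.032). This 4 h call was lost with no filter, with values below 0 set to 0, with quantile normalization, with voom weights, when only the compared groups were fitted, and without control replicate 1 (0.39) or 3 (0.38) or BMH-21 replicate 1 (0.42) or 3 (0.47). At 4 h of CX-5461 it was 0.10 ± 0.20 (limma adjusted p = 0.68), and it fell below 0 without CX-5461 replicate 2 (-0.04).

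Tcstv3, its paralog, had log2 values of 0.02, 0.55 and 0.20 in control. They were 1.15, 0.22 and 0.79 at 4 h of BMH-21 and 2.23, 2.51 and 2.65 at 8 h, against 0.36, 0.65 and 0.20 at 4 h of CX-5461 and 2.27, 2.41 and 2.36 at 8 h. As for Tcstv1, the 8 h libraries were separate from the rest, and at 4 h of BMH-21 one library lay within the control range. The log2 difference at 8 h was 2.21 ± 0.19 (SE) with BMH-21 and 2.09 ± 0.19 with CX-5461 (limma adjusted p of 7.5e-21 and 7.2e-19). The 4 h difference with BMH-21, 0.46 ± 0.19 (limma adjusted p = 0.026), was lost with no filter, quantile normalization or voom weights, and without control replicate 1 (0.34) or 3 (0.44) or BMH-21 replicate 1 (0.25) or 3 (0.43). Both Tcstv genes are tied to telomere length in mouse embryonic stem cells.

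AF067061 lies between them. Its log2 values were 0.98, 0.81 and 0.71 in control, 1.08, 0.96 and 1.17 at 4 h of BMH-21 and 0.44, 1.04 and 0.45 at 4 h of CX-5461. At 8 h the BMH-21 libraries reached 2.81, 3.19 and 3.28, and the CX-5461 libraries 2.79, 2.82 and 2.76. The 4 h libraries overlapped the controls, and at 8 h all 6 were far above every earlier library. The 8 h difference was 2.26 ± 0.17 (SE) with BMH-21 and 1.96 ± 0.17 with CX-5461, with limma adjusted p of 3.1e-25 and 1.6e-20. At 4 h it was 0.24 ± 0.17 with BMH-21 (limma adjusted p = 0.2), which centring moved to 0.39 and past the threshold, and -0.19 ± 0.17 with CX-5461 (limma adjusted p = 0.31). The CX-5461 value at 4 h was -0.37 and past the threshold with quantile normalization, -0.38 and past it without CX-5461 replicate 2, and 0.06 with median-ratio factors.

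Among the deubiquitinating enzymes, which remove ubiquitin from proteins, Usp17le rose earliest and furthest. Its log2 values were 0.39, 0.48 and 0.28 in control, 0.42, 0.89 and 0.90 at 2 h of BMH-21, 1.63, 1.36 and 1.29 at 4 h, and 3.41, 3.28 and 3.88 at 8 h. With CX-5461 they were 0.74, 0.56 and 0.48 at 2 h, 1.25, 1.14 and 1.26 at 4 h, and 2.58, 2.99 and 2.78 at 8 h. Each step from 2 to 4 to 8 h moved all 3 libraries above the whole range of the earlier time, with both inhibitors. Relative to control, the log2 difference at 4 h was 1.04 ± 0.16 (SE) with BMH-21 and 0.83 ± 0.16 with CX-5461 (limma adjusted p of 1.5e-08 and 4.7e-06). At 8 h it was 3.14 ± 0.16 and 2.40 ± 0.16, that is 8.83-fold and 5.28-fold (limma adjusted p of 1.3e-37 and 2.7e-27). The 2 h differences, 0.35 ± 0.16 with BMH-21 and 0.21 ± 0.16 with CX-5461, missed the threshold as deposited (limma adjusted p of 0.12 and 0.3), and both passed it after centring (0.43 and 0.36) and with median-ratio factors.

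Usp17la and Usp17lc, whose promoters are shown above, stayed near their control values through 4 h. The log2 value of Usp17la was 1.17, 1.55 and 1.00 in control, 1.51, 1.53 and 1.50 at 4 h of BMH-21 and 1.29, 1.33 and 0.94 at 4 h of CX-5461. It was 2.64, 2.32 and 2.98 at 8 h of BMH-21 and 2.54, 2.32 and 2.70 at 8 h of CX-5461, every one above every earlier library. Control replicate 2 set the top of the control range, and the 4 h libraries of both inhibitors lay within or just below that range. The log2 difference at 8 h was 1.41 ± 0.16 (SE) with BMH-21 and 1.28 ± 0.16 with CX-5461 (limma adjusted p of 4.9e-14 and 1e-11), the smallest of the 9 genes with BMH-21. At 4 h of BMH-21 the difference of 0.27 ± 0.16 (limma adjusted p = 0.13) passed the threshold after centring (0.42), with median-ratio factors (0.46) and without control replicate 2 (0.43).

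Usp17lc had log2 values of -0.28, -0.03 and 0.00 in control, 1.54, 0.89 and 1.62 at 8 h of BMH-21 and 1.17, 1.85 and 1.64 at 8 h of CX-5461. At 2 and 4 h its 12 treated libraries lay between -0.81 and 0.18. The groups at 8 h were well above the earlier ones but the most scattered of the 9 genes, with an SD of 0.40 for BMH-21 and 0.35 for CX-5461 (n = 3). At 8 h its log2 difference from control was 1.45 ± 0.23 (SE) with BMH-21 and 1.66 ± 0.23 with CX-5461 (limma adjusted p of 6.6e-09 and 2.7e-10). It was 0.03 ± 0.23 and -0.06 ± 0.23 at 4 h (limma adjusted p of 0.91 and 0.82). Reads of these enzymes are uncertain between copies: 44.7% of the 50-base windows of Usp17lc transcripts recur in transcripts of other genes, 41.5% in those of Usp17ld alone, beside 29.8% for Usp17le and 19.3% for Usp17la. The corresponding shares were 31.4% for Tcstv3, 15% for Tcstv1 and 23.4% for AF067061, so the values of these genes too may include reads of relatives.

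Tmem92, predicted to encode a membrane protein, had the highest fold of the 9 genes at 8 h with CX-5461. Its log2 values were -0.48, -0.67 and -0.68 in control, 0.05, 0.44 and 0.31 at 4 h of BMH-21 and 2.72, 2.75 and 3.02 at 8 h. With CX-5461 they were -0.05, 0.19 and -0.34 at 4 h and 2.58, 2.56 and 3.09 at 8 h. The 4 h libraries of both inhibitors lay above all 3 controls, and those at 8 h were far above them. At 8 h the log2 difference from control was 3.44 ± 0.21 (SE) with BMH-21 and 3.36 ± 0.21 with CX-5461, 10.9-fold and 10.2-fold (limma adjusted p of 5.5e-32 and 1.3e-30). At 4 h it was 0.88 ± 0.21 and 0.55 ± 0.21 (limma adjusted p of 0.00012 and 0.016). Since these 4 h values lie around 0, setting values below 0 to 0 took both differences below the threshold (0.26 and 0.06), as did quantile normalization (0.43 and 0.05). The CX-5461 call was also lost with voom weights, in a fit of only the compared groups, and without CX-5461 replicate 2 (0.42). Only 1.93% of the windows of Tmem92 recur in other genes.

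Sp110 had tight controls, with log2 values of 1.10, 1.09 and 1.11. The values were 1.07, 1.38 and 0.97 at 2 h of BMH-21, 2.34, 1.89 and 2.08 at 4 h and 2.89, 2.73 and 2.82 at 8 h, against 1.20, 1.25 and 0.65, then 1.64, 2.02 and 1.78, then 2.37, 2.30 and 2.44 with CX-5461. From 4 h on, every treated library exceeded every control. The log2 difference from control was 1.00 ± 0.16 (SE) at 4 h and 1.71 ± 0.16 at 8 h of BMH-21 (limma adjusted p of 1e-08 and 2.6e-19). With CX-5461 it was 0.71 ± 0.16 and 1.27 ± 0.16 (limma adjusted p of 3.2e-05 and 3.6e-12). The 4 h change was thus 58.5% of the 8 h log2 change with BMH-21 and 56.1% with CX-5461, compared with 33.2% and 34.6% for Usp17le and 25.5% and 16.3% for Tmem92. Of the windows of Sp110 transcripts, 36% recur in other genes' transcripts, 26.7% in those of Gm16026.

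Ddit4l followed another course from the rest. Its log2 values were 3.16, 3.12 and 2.91 in control (355 to 418 reads), 5.81, 6.05 and 5.91 at 2 h of BMH-21, 7.32, 7.05 and 7.05 at 4 h and 6.71, 6.66 and 6.82 at 8 h. With CX-5461 they were 6.11, 5.85 and 5.92 at 2 h, 6.60, 6.77 and 6.59 at 4 h and 5.80, 5.75 and 5.72 at 8 h. Values were highest at 4 h with both inhibitors, and at 8 h of CX-5461 all 3 libraries were below those at 2 h. Relative to control, its log2 difference was 2.86 ± 0.11 (SE), 4.08 ± 0.11 and 3.67 ± 0.11 at 2, 4 and 8 h of BMH-21 (limma adjusted p of 1.3e-49, 4.8e-67 and 1.3e-62). With CX-5461 it was 2.90 ± 0.11, 3.59 ± 0.11 and 2.70 ± 0.11 (limma adjusted p of 8.5e-50, 5.3e-61 and 5e-48). The peak at 4 h was 16.9-fold above control with BMH-21 and 12.0-fold with CX-5461.

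Between consecutive times, 4 of 9 genes rose from 2 to 4 h with each inhibitor, namely Usp17le, Tmem92, Sp110 and Ddit4l, where 20.8% of all tested genes rose with BMH-21 and 20.7% with CX-5461. In that order the log2 steps were 0.69, 0.80, 0.96 and 1.22 with BMH-21, compared with 0.62, 0.80, 0.78 and 0.69 for CX-5461. That of Tmem92 was 0.26 and 0.06, and not past the threshold, with values below 0 set to 0, and 0.34 and not past it for CX-5461 with quantile normalization. From 4 to 8 h, the 8 genes other than Ddit4l rose with each inhibitor, where 18.6% of all tested genes rose with BMH-21 and 58.8% with CX-5461, and Ddit4l fell, as did 37.8% and 4.85% of all tested genes. Log2 steps of the 8 rising genes from 4 to 8 h ran from 0.71 (Sp110) to 2.56 (Tmem92) for BMH-21 and from 0.56 (Sp110) to 2.81 (Tmem92) with CX-5461. Ddit4l fell by 0.41 with BMH-21 and by 0.89 with CX-5461 (limma adjusted p of 0.00067 and 5e-12). The centring shift between 4 and 8 h of CX-5461 was 0.37, after which 25.8% of all tested genes rose and 32.0% fell, and the step of Sp110 there was 0.18 after centring and no longer past the threshold (limma adjusted p = 0.202).

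Per kilobase of exon, the order of the genes changed with treatment. This scale compares genes only roughly, since the length is that of all annotated exons merged (779 bp for Tcstv3, 6781 bp for Sp110). Which transcripts were present was not determined. The share of windows recurring in other genes also differed, from 0.14% for Ddit4l to 44.7% for Usp17lc. On that log2 scale Ddit4l was highest in control (1.52), followed by Tcstv3 (0.62) and AF067061 (0.34), whose ranges overlapped. Usp17la (-0.17) came next, and then Usp17le (-0.61) and Tcstv1 (-0.63), again overlapping, Usp17lc (-1.40), and the overlapping Sp110 (-1.66) and Tmem92 (-1.74). At 8 h of BMH-21 Ddit4l remained highest (5.19), while Tcstv3 (2.82), AF067061 (2.60) and Usp17le (2.54) each overlapped the next. Below them were Tcstv1 (1.78) and Tmem92 (1.70), Usp17la (1.24), and Usp17lc (0.06) with Sp110 (0.05). Tmem92 thus moved from the end of the order to the middle, and Sp110 was last or level with the last. At 8 h of CX-5461 the order was Ddit4l (4.21), Tcstv3 (2.70), AF067061 (2.30), the overlapping Usp17le (1.79), Tmem92 (1.61) and Tcstv1 (1.49), then Usp17la (1.11), Usp17lc (0.26) and Sp110 (-0.39).

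The inhibitors were compared directly at each time at the same dose of 1 µM. At 8 h, 3 of 9 genes were called higher with BMH-21 than with CX-5461 (12.0% of all tested genes) and 0 lower (67.2%). Ddit4l differed by 0.97 ± 0.11 (SE, log2), Usp17le by 0.74 ± 0.16 and Sp110 by 0.44 ± 0.16 (limma adjusted p of 3.6e-14, 2.9e-05 and 0.0074), and in each the 3 BMH-21 libraries lay above the 3 CX-5461 libraries. For the other 6 the 95% interval of the log2 difference included 0, from -0.12 to 0.68 for Tcstv1, -0.26 to 0.50 for Tcstv3, -0.03 to 0.63 for AF067061, -0.19 to 0.45 for Usp17la, -0.65 to 0.25 for Usp17lc and -0.33 to 0.50 for Tmem92. The scaling decides how many of these pass: after removal of the common shift of -0.43, 8 of 9 were called higher with BMH-21, and the share of all tested genes called higher rose to 31.1%. The exception was Usp17lc (0.22, limma adjusted p = 0.364), and median-ratio factors and quantile normalization gave 8 as well, where 34.4% and 31.4% of all tested genes were called higher. The median log2 difference of the 9 after centring was 0.71, beside -0.06 for all tested genes.

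At 4 h, Ddit4l was the only gene of the 9 called between the inhibitors, higher with BMH-21 by 0.49 ± 0.11 (SE; limma adjusted p = 0.0003), where 9.35% of all tested genes were called higher. AF067061 differed by 0.43 ± 0.17 (limma adjusted p = 0.062), and centring took this past the threshold (0.42, limma adjusted p = 0.015). At 2 h Tcstv1 was called, higher with BMH-21 by 0.71 ± 0.20 (limma adjusted p = 0.024), where 2.47% of all tested genes were. The 3 BMH-21 libraries lay above the 3 CX-5461 libraries, but neither group differed from control (0.36 and -0.35, limma adjusted p of 0.23 and 0.18). This call was lost without any filter, with values below 0 set to 0, with voom weights, in a fit of only the compared groups, and in 5 of the 6 fits that left out 1 library. Ddit4l, by contrast, differed by only -0.04 ± 0.11 at 2 h (limma adjusted p = 0.88), with a call at -0.14 with median-ratio factors.

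**Figure D3:**
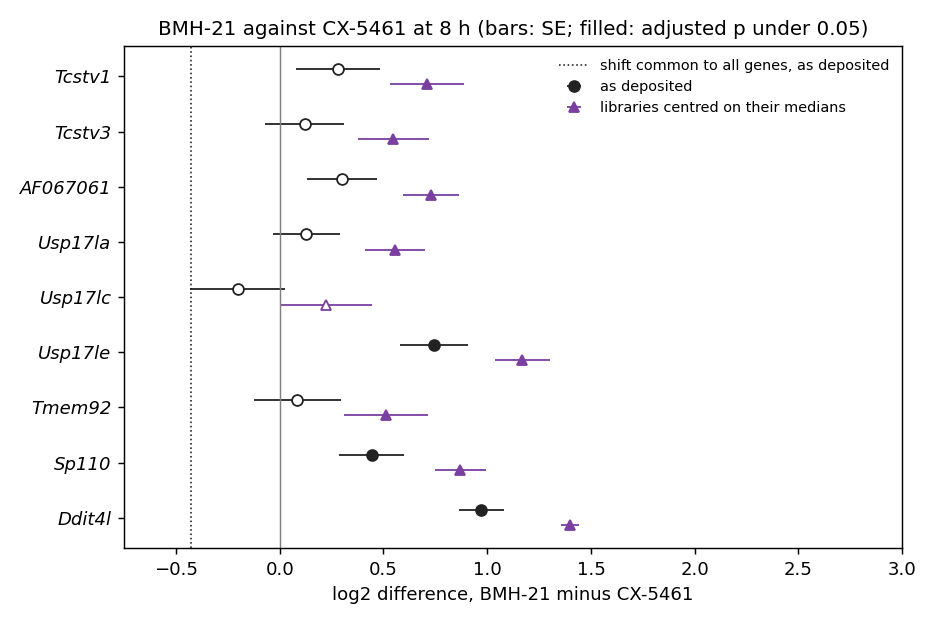
The log2 difference between BMH-21 and CX-5461 at 8 h (x axis) for each gene (y axis), as deposited (circles) and after each library was centred on its median (triangles); bars are standard errors and filled symbols have an adjusted p under 0.05. The dotted line at -0.43 marks the shift common to all genes, and the centred values lie to the right of the deposited ones by that amount.

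A further list of 73 genes of the 2-cell embryo had 48 in the table and 33 past the filter. A gene can pass this filter through its 8 h libraries alone, so the counts of rises at 8 h may partly follow from that selection. The group mean of A630095N17Rik was above 0 only at 8 h of BMH-21 (0.85). That of Pramef25 was above 0 only at 8 h of BMH-21 (0.30) and of CX-5461 (0.41). After 8 h, 24 rose and 8 fell with BMH-21, where 24.5% and 56.9% of all tested genes did, and 24 rose and 6 fell with CX-5461, where 35.1% and 14.3% did. Median log2 differences were 1.15 and 1.19, beside -0.40 and 0.11 for all tested genes. Centring left 24 rises with each inhibitor (33.3% and 29.3% of all tested genes), and quantile normalization left 18 and 16 (33.5% and 27.6%). At 4 h, 7 rose and 9 fell with BMH-21 and 4 rose and 14 fell with CX-5461, where 22.1% and 19.8% of all tested genes rose and 44.9% and 51.2% fell. At 2 h, 2 rose and 4 fell with BMH-21 and 1 rose and 9 fell with CX-5461, where 8.48% and 7.45% of all tested genes rose and 11.2% and 20.5% fell. The counts of rises at 2 and 4 h were 6 and 10 with BMH-21 after centring, where 18.6% and 32.2% of all tested genes rose, and 2 and 4 with CX-5461, where 15.8% and 28.5% did. With quantile normalization 1 gene rose at 4 h with each inhibitor, where 30.4% and 27.8% of all tested genes rose, and 14 fell with BMH-21 and 25 with CX-5461, where 42.9% and 44.6% fell.

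The largest rises of that list at 8 h were those of A630095N17Rik (log2 difference 4.33 with BMH-21 and 2.75 with CX-5461), Gm12794 (3.50 and 2.79) and Pramef25 (2.88 and 2.99, a PRAME family gene). They started from 2 to 6, 22 to 24 and 7 to 8 reads per control library, so these differences depend on few control reads, and that of A630095N17Rik with CX-5461 was 0.22 with quantile normalization. The largest falls were those of Trim43a (-3.29 and -1.42), Trim43c (-2.55 and -1.53) and Calcoco2 (-2.05 and -0.85), the last encoding an autophagy receptor. The direction of these falls was the same under each scaling. The close relatives Usp17lb and Usp17ld rose too at 8 h. On the log2 scale Usp17lb rose by 1.92 (BMH-21) and 1.79 (CX-5461), and Usp17ld by 1.87 and 2.07. With quantile normalization the rises were 1.58 and 1.08 for Usp17lb and 1.07 and 0.97 for Usp17ld, each still past the threshold. These rises may include reads of the Usp17-like genes described above. Of the 50-base windows of Usp17ld, 51.1% recur in other genes, 50.4% in Usp17lc. For Usp17lb the share was 21.4%, with 11.5% in Usp17la.

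**Figure D4:**
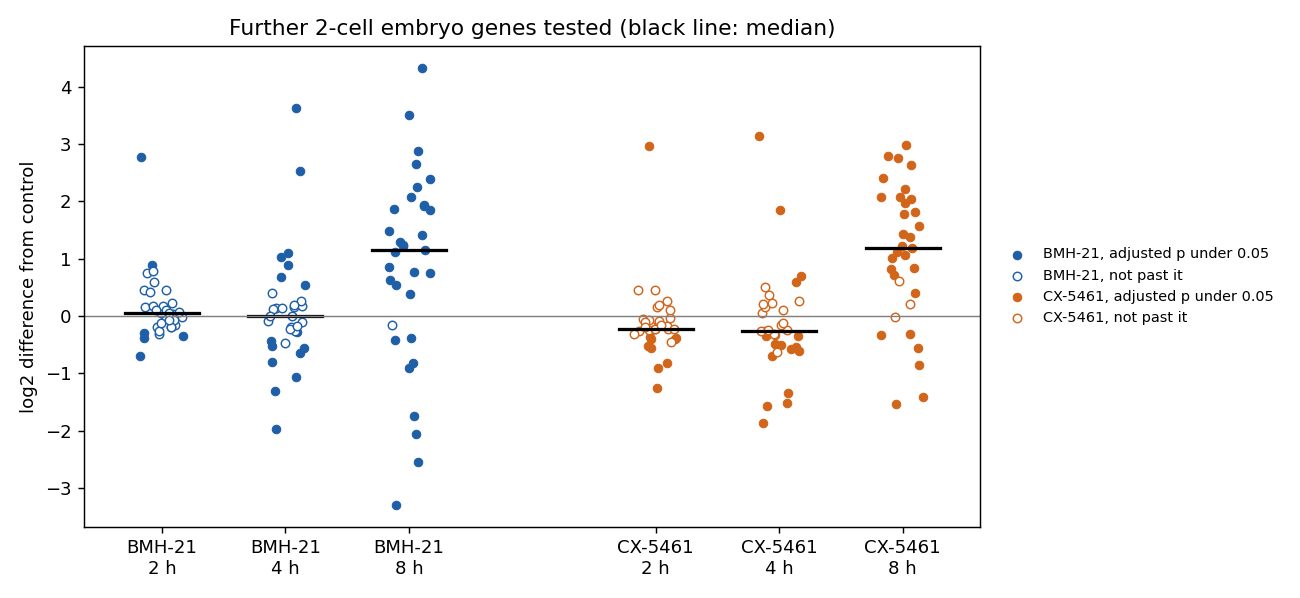
The log2 difference from control (y axis) of the 33 tested genes of the further list in the 6 treated groups (x axis); each point is a gene, filled where the adjusted p is under 0.05, and black lines are medians. The medians are near 0 at 2 and 4 h of BMH-21, and at 1.15 and 1.19 at 8 h of BMH-21 and CX-5461. At 2 and 4 h of CX-5461 they are -0.22 and -0.26, beside -0.18 and -0.28 for all tested genes.

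Markers of the cells and of other lineages were read beside these rises. As background, 56.9% of all tested genes were called lower at 8 h of BMH-21, and 24.5% higher. The CX-5461 shares at 8 h were 14.3% lower and 35.1% higher. Centring made them 44.7% and 29.3%, and those of BMH-21 51.3% and 33.3%. Under quantile normalization the lower and higher shares were 50.7% and 33.5% for BMH-21, beside 40.4% and 27.6% for CX-5461. No marker list was tested against these shares. All 10 embryonic stem cell markers were in the table, and their summed level was 12.78 to 12.97 (log2) in control, 11.59 to 11.69 at 8 h of BMH-21 and 12.56 to 12.67 at 8 h of CX-5461. Each of the 10 fell at 8 h of BMH-21, although under quantile normalization 8 fell and 1 rose, and with CX-5461 7 fell and 1 rose (8 and 1 after centring, 5 and 2 under quantile normalization). Of 6 trophoblast markers, all in the table and none at 0, 5 were tested. Of these, 4 rose and 1 fell at 8 h of BMH-21, and 4 rose at 8 h of CX-5461 (3 under quantile normalization). The summed level of the 6 was 6.85 to 7.14 (BMH-21) and 6.90 to 7.14 (CX-5461) at 8 h against 6.29 to 6.42 in control. Most of that sum was Tfap2c, with group means of 6.88 and 6.85 at 8 h against 6.20 in control. The summed level of 6 fibroblast or feeder markers was 4.93 to 5.12 in control, 5.27 to 5.54 at 8 h of BMH-21 and 5.42 to 5.46 at 8 h of CX-5461, with Lum at 3 reads or fewer in every library; of the 3 tested, 1 rose and 1 fell with BMH-21 and 2 rose with CX-5461, the latter becoming 1 rise and 1 fall after centring and under quantile normalization. For 6 primitive endoderm markers the sums were 4.08 to 4.33, 4.18 to 4.47 and 4.42 to 4.48, and 2 rose and 3 fell with BMH-21 and 2 rose with CX-5461. After centring 3 rose and 3 fell with BMH-21, and with CX-5461 2 rose and 2 fell, or 1 and 2 under quantile normalization. The part of other cell types in the rises of the 9 genes was not tested.

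For each of the 9 genes, the tested genes outside the list with the most similar profile were taken by Pearson's r over the 21 libraries, which share their treatments and their scaling. Those closest to Tcstv1 were Gm20767 (0.974), Fgfbp1 (0.967) and Gm8300 (0.966), and to AF067061 Gm20767 (0.986), Gm8300 (0.974) and Gm2022 (0.972). Tcstv3 was most like Fst (0.978), Grip1 (0.969) and Gm8300 (0.968). Usp17la was closest to Grip1 (0.961), Gsn (0.956) and Gm8300 (0.952), and Usp17lc to Vwa5a (0.950), Gm8300 (0.944) and Tspyl1 (0.942). Gsn and Fosl2 were near both Usp17le (0.988 and 0.981, then Col22a1 at 0.979) and Tmem92 (0.976 and 0.971, after Gucy2g at 0.980). Sp110 had Mfge8 (0.979), Tcn2 (0.978) and Mroh4 (0.978) as its nearest, and Ddit4l had Fam212b (0.992), Lpin1 (0.992) and Trim11 (0.989). Gm8300 stood among the 3 nearest of 5 of the 9 genes, and neither Ddit4l nor Sp110 shared any of its nearest with the other 8.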

How the data were processed

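The submitters deposited 1 table of log2 values for 20900 genes in 21 libraries, normalized with voom according to its name. The submitters' processing notes name Trim Galore 0.5.0, TopHat2 2.1.1, R 4.0.5, DESeq2 1.30.1, edgeR 3.32.1, limma 3.46.0 and the build mm10, without their roles; the counting program, its strand setting and the annotation are not given in the sources used here. Libraries were made with a directional kit, per the labels' protocols. With the smallest value of a library taken as 0 reads plus 0.5, all deposited log2 values gave whole reads (100.0% within 0.01). The origin of the scaling factors of the libraries is not stated.

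Differences were estimated with limma 3.58.1 (R 4.3.3), with a mean for each of the 7 groups fitted to the 21 libraries together, eBayes with a mean-variance trend, two-sided tests and Benjamini-Hochberg adjustment over 14666 genes at 0.05. Genes needed a log2 value above 0 in at least 3 libraries, and 6234 did not pass. The unit is log2, so no count model was the main test. The prior on the variance had 111.5 degrees of freedom and the libraries gave 14, so the spread of each gene came mostly from genes of like level. After centring the prior had 8.5 degrees of freedom, so the size of the smallest p-values depends on the scaling. For Zfp750 at 4 h of BMH-21, the limma adjusted p was 9.6e-60 as deposited and 4.3e-25 after centring. Fold changes carry the offset of 0.5 reads. Replicate pairs differed by more than sampling noise (chi-square per degree of freedom 2.58 to 26).

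The 10 genes, the further list and the marker lists were chosen with earlier results of these data known. The text names the 10 genes, the 3 largest rises and falls of the further list at 8 h with each inhibitor, and the 3 genes nearest to each of the 9 tested by Pearson's r. Positions came from GENCODE M21, to which 96% of symbols matched, and exon lengths were those of all exons merged. Overlap between genes was counted as shared 50-base windows of the annotated transcripts. Figures were drawn with matplotlib 3.10.9.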

Additional observations from a re-analysis of the deposited data

Results flagged for a closer look

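Of the differences between BMH-21 and CX-5461 at the same time, 5 passed the limma test of the difference itself and are given here as values, on the log2 scale with BMH-21 minus CX-5461. At 2 h Tcstv1 differed by 0.71, the call that was lost in most fits without 1 library. At 4 h Ddit4l differed by 0.49. At 8 h Usp17le differed by 0.74, Sp110 by 0.44 and Ddit4l by 0.97, and these 3 held under every alternative.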

How the results depend on the processing

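Of the 82 differences of single genes compared, the number with the same direction and call was 82 with the replicate block, with an offset of 5 reads and with no variance trend, 79 with no filter, 78 with only the compared groups, 77 with voom weights, 72 with values below 0 set to 0, 68 after centring, and 65 with median-ratio factors and with quantile normalization. Replicate numbers did not pair the libraries: deviations of same-numbered libraries correlated at -0.25 to 0.11 (median 0.00, and 0.01 for different numbers), and 4 of 21 libraries correlated best with their own number, so the replicate block shares only a number and left every count of called genes as it was.

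The number of genes called between the inhibitors at 2 h, 1 as deposited, was 0 with no filter and with values below 0 set to 0. It was also 0 with voom weights and with only the compared groups, and 0 to 1 without 1 library. With median-ratio factors it was 2, 1 higher and 1 lower with BMH-21, where 5.48% and 9.58% of all tested genes were. At 4 h it was 2 with values below 0 set to 0 and 1 to 2 without 1 library. After centring and with median-ratio factors it was 2, and with quantile normalization 4, all higher with BMH-21. Of all tested genes, 27.4%, 17.6% and 20.4% were called higher in that order. At 8 h it was 8 with each of these 3 scalings, where 31.1%, 34.4% and 31.4% of all tested genes were called higher. Without 1 library it was 3 to 4. Against control it was, for each inhibitor, 2 at 2 h once libraries were centred or given median-ratio factors, 1 to 2 without 1 library for BMH-21, and 3 at 4 h of BMH-21 with quantile normalization. The cause was not tested.

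Values that changed sign were all short of the threshold in the fit as deposited. Usp17lc against control at 4 h of BMH-21 was -0.0012 with values below 0 set to 0, -0.35 with quantile normalization and -0.059 to 0.085 without 1 library. At 4 h of CX-5461 it was 0.10 with values below 0 set to 0, 0.10 after centring, 0.19 with median-ratio factors and -0.24 to 0.26 without 1 library. At 4 h of CX-5461, Usp17la was 0.10 after centring, 0.19 with median-ratio factors and -0.18 to 0.10 without 1 library, AF067061 0.063 with median-ratio factors, Tcstv1 -0.28 with quantile normalization and -0.038 to 0.28 without 1 library, and Tcstv3 -0.084 with quantile normalization. Between the inhibitors at 8 h, Usp17lc was 0.22 after centring, 0.27 with median-ratio factors, 0.11 with quantile normalization and -0.39 to 0.026 without 1 library, Usp17la -0.039 to 0.29 and Tmem92 -0.0098 to 0.26 without 1 library. Ddit4l between the inhibitors at 2 h was -0.10 to 0.040 without 1 library.

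Depth limits Tcstv1, Usp17lc and Tmem92 most, whose log2 values lie near or below 0 before 8 h.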

Other observations

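Zfp750, a zinc finger gene of the further list known from epidermal differentiation, was singled out after its values were seen, because it was the only gene of that list more than 2 log2 units above control at 2 h. Its log2 difference from control at 2, 4 and 8 h was 2.78 ± 0.11 (SE), 3.64 ± 0.11 and 2.66 ± 0.11 for BMH-21, compared with 2.96 ± 0.11, 3.14 ± 0.11 and 2.05 ± 0.11 for CX-5461. Of these 6, the limma adjusted p was highest, at 7.5e-35, for CX-5461 at 8 h. As for Ddit4l, its mean was highest at 4 h with both inhibitors.

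Genes annotated around the clusters were read at 8 h. Between Tcstv1 and Tcstv3, the other tested genes B020031M17Rik and Gm20767 rose with both inhibitors, the first by 1.42 (BMH-21) and 1.38 (CX-5461) and the second by 1.85 and 1.57 on the log2 scale, except that B020031M17Rik with CX-5461 was 0.51 and short of the threshold under quantile normalization. The values of Gm20767 may include reads of AF067061, of whose windows 9.9% recur in it. Between Usp17lc and Usp17la, the 7 other tested genes did not move one way: with BMH-21, 4 rose and 3 fell. Those that fell were Trim34a (-0.80), Trim34b (-0.92) and Trim12c (-0.90), each below 0 under every scaling, and those that rose included Trim30a (1.07) beside Usp17lb. With CX-5461, 3 rose as deposited, Trim30a (1.37), Usp17lb and Trim6 (0.31), the last short of the threshold after centring (0.09), and none fell as deposited.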
